A study of Mus musculus with 6 samples.

Results

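The genes described here are 8 mouse genes for isocitrate dehydrogenases and for enzymes that make or use 2-oxoglutarate: Idh1, Idh2, Idh3a, Idh3b, Idh3g, D2hgdh, Glud1 and Ogdh. They were chosen by name from the array's annotation, and all probe sets whose only gene symbol was one of these names were used. That gave 117 of 269751 probe sets, summarised to 8 of 23152 genes. The cells were cultured neural stem cells taken from mouse cortex on embryonic day 14.5, of a strain the labels do not name, and each culture was read on 1 Affymetrix array. One culture of each of 3 cell lines, numbered 2, 7 and 8 in the sample titles, was transduced with the control virus Ad-GFP, an adenovirus for a fluorescent protein, and another with Ad-Cre, an adenovirus for Cre recombinase, which in these cells turns on a mutant IDH. The series title names the mutation as R132H of IDH1. The dose was 100 MOI (multiplicity of infection) for each virus, cells were washed after 24 hours, and the labels used here do not say when RNA was taken. No array used here carries Cre without a mutant allele, so what Cre does and what the mutant enzyme does cannot be told apart. In line 8 the marks in another label field are reversed relative to the other lines, so the results were also computed with the virus labels of line 8 exchanged.

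IDH1, in the cytosol and peroxisomes, and IDH2, in mitochondria, oxidise isocitrate to 2-oxoglutarate and make NADPH, while the separate mitochondrial enzyme IDH3 does the same step for the citric acid cycle and makes NADH. The R132H form of IDH1, frequent in gliomas, instead reduces 2-oxoglutarate to D-2-hydroxyglutarate and consumes NADPH. D2HGDH oxidises D-2-hydroxyglutarate back to 2-oxoglutarate, GLUD1 interconverts glutamate and 2-oxoglutarate, and OGDH is the first subunit of the complex that turns 2-oxoglutarate into succinyl-CoA.

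Of the whole series, 3 facts bear on these genes. Median log2 signals of the 6 arrays lay between 8.38 and 8.43, and no depth can be given for arrays, whose number limits the precision. The Ad-Cre array of line 2 stood apart: its r across genes was 0.969 to 0.976 with each other array, and 0.988 to 0.996 among the remaining 5. All 10 neural stem cell markers of the list used had probe sets. Their mean log2 level lay between 11.83 and 11.95 with Ad-GFP and between 11.58 and 11.77 with Ad-Cre. Prom1 (-1.31) and Msi1 (-0.48) fell most in this list, while Hes1 (0.42) and Vim (0.09) were higher in every line. The list's median difference was -0.08, and 0.01 in line 2 alone. Mean levels of 8 oligodendrocyte lineage markers (9.87 to 10.01 against 9.06 to 9.27), 6 neuron markers (9.62 to 9.93 against 8.78 to 9.25) and 5 markers of dividing cells (11.86 to 11.87 against 9.32 to 11.50) were also lower with Ad-Cre in every line. A few genes carried the oligodendrocyte list: Pdgfra (-2.72) and Gpr17 (-2.86) were far lower, the other oligodendrocyte markers lay between -0.24 and 0.01, and the list's median difference was -0.13. Among neuron markers Snap25 (-2.45) and Dcx (-1.80) had the largest differences, while Rbfox3 was higher in every line (0.39). The mean of 7 astrocyte markers lay between 10.29 and 10.58 with Ad-GFP and between 9.46 and 10.70 with Ad-Cre. List means of markers of other cells were at most 7.35 for 6 microglia markers, 6.79 for 5 endothelial markers and 7.83 for 6 markers of fibroblasts and mural cells. Of the last list Acta2, smooth muscle actin, read far above its mean with Ad-GFP, at 11.28, 12.08 and 10.12 in lines 2, 7 and 8, and differed by -2.35 with Ad-Cre. In bulk RNA, fewer cells of a type and less RNA per cell cannot be told apart, and the part of these shifts in the results below was not tested.

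None of the 8 genes passed the test of Ad-Cre against Ad-GFP, run as limma with the cell line as a block, where p-values were adjusted over all genes by Benjamini-Hochberg and called at 0.05. None of the 23152 genes passed it (0%). Before adjustment, 3 of the 8 genes had a p under 0.05, against 12.6% of all genes: Idh2 read higher with Ad-Cre (7.04% of all genes), and D2hgdh and Glud1 read lower (5.58%). All 3 lines shared a direction for 4 of the 8 genes (38.3% of all genes), and the levels of Ad-Cre and Ad-GFP did not overlap for the same 4, Idh2, Idh3g, D2hgdh and Glud1 (20.9%). The median difference of the 8 genes was -0.01 log2 units, against 0.03 over all genes. Without line 2, whose Ad-Cre array stood apart, 2 of the 8 genes passed, Idh2 and Glud1, where 5.23% of all genes did. That fit had 1 residual degree of freedom. Leaving out line 7 or line 8 instead called 0 of the 8 genes and 0 of all genes.

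**Figure D1:**
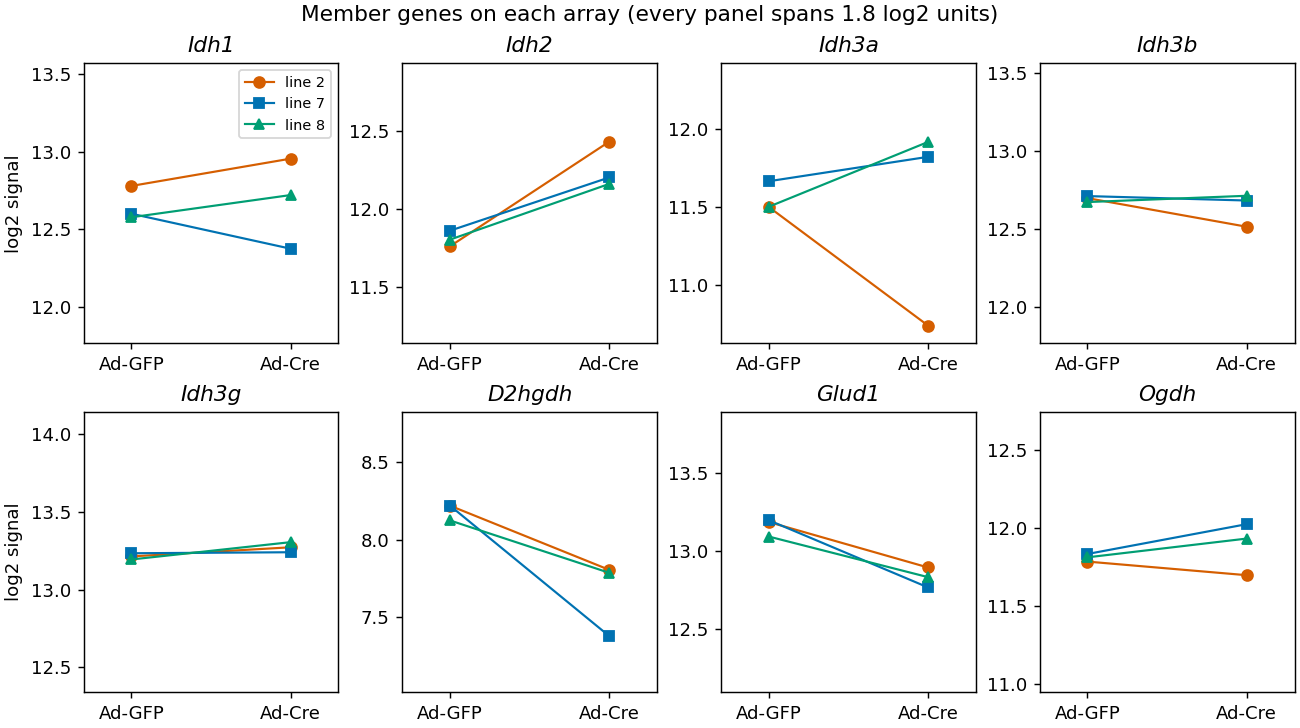
Log2 signal of each of the 8 genes (vertical axis, every panel spanning the same 1.8 log2 units) with Ad-GFP and with Ad-Cre; each line joins the 2 cultures of one cell line. Idh2 is higher and D2hgdh and Glud1 are lower with Ad-Cre in every line, while Idh3a moves down in line 2 and up in lines 7 and 8.

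Sequence is shown for 2 genes, Idh1, the gene of the series title, and Glud1, the member with the lowest p, as the stretch where their transcription starts. Each is the 250 bases before the outermost annotated start, 5′ to 3′ on the gene's strand, from RefSeq on GRCm38.p6. These are chr1:65186480-65186729 on the minus strand for Idh1 and chr14:34310477-34310726 on the plus strand for Glud1. Capitals mark matches, on either strand, to 4 short motifs: the TATA box (TATAAA), the CCAAT box (CCAAT), the GC box (GGGCGG) and the E-box (CACGTG).
Idh1: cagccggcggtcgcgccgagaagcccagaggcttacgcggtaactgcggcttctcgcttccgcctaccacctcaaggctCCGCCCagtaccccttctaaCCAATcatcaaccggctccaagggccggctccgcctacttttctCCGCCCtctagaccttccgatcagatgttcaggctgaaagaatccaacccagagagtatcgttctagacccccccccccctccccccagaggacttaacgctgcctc
Glud1: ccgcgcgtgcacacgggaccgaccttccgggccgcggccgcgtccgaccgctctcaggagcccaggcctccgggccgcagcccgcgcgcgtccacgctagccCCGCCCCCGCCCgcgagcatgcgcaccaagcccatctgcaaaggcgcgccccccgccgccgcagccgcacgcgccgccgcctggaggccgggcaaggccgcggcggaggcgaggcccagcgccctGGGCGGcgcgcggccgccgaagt
The Idh1 stretch has 61.6% G and C and 18 CG pairs, and the Glud1 stretch has 82.0% and 46. GGGCGG or its reverse complement occurs 2 times in Idh1 and 3 times in Glud1. Of 32851 stretches of the same length before all listed starts, not only outermost ones, 32.7% hold it. CCAAT occurs 1 time in Idh1 and 0 times in Glud1 (33.8% of stretches), and the TATA box (12.4%) and the E-box (6.02%) occur in neither. No match overlaps another, and a match is a run of letters, not a measured binding site.

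Idh1, the gene that carries the mutation, had no shared direction over the lines. Its log2 signal was 12.78, 12.60 and 12.58 with Ad-GFP in lines 2, 7 and 8, and 12.95, 12.38 and 12.72 with Ad-Cre. The Ad-Cre levels therefore lie on both sides of the Ad-GFP levels, with line 7 lowest and line 2 highest. The mean difference was 0.03 ± 0.10 log2 units (SE, n = 3 lines; limma adjusted p = 0.917), with a 95% interval from -0.23 to 0.29. SEs and 95% intervals here and below are limma's, with each gene's variance moderated towards a trend over all genes. The spread between lines was 0.11 (SD) with Ad-GFP and 0.29 with Ad-Cre. Of its 12 probe sets, which each read a short stretch of the transcript, 7 had a mean difference above 0 and 5 below, and 0 had one direction in all 3 lines. No source used here says whether a probe set tells the mutant transcript from the normal one, so these levels do not check that Cre acted.

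Idh2, the mitochondrial NADPH-making enzyme, had the largest higher reading of the 8 genes with Ad-Cre. It read 11.76, 11.86 and 11.81 with Ad-GFP in lines 2, 7 and 8, and 12.44, 12.20 and 12.16 with Ad-Cre. All Ad-Cre levels exceeded all Ad-GFP levels, and the line differences were 0.67, 0.34 and 0.36. The mean was 0.46 ± 0.10 (SE, n = 3 lines; limma adjusted p = 0.187), or 1.37-fold, with a 95% interval from 0.21 to 0.71. Without line 2 the difference was 0.35 and passed (limma adjusted p = 0.0237). Over the 13 alternatives the limma adjusted p ranged from 0.0237 to 0.999. Only the exchange of the line 8 labels gave 0.999, and the next highest was 0.506, without line 8. The difference ran along the whole set of probe sets: 12 of 12 had a mean above 0, from 0.32 to 0.72, and 11 were higher in all 3 lines. The brightest, at a mean signal of 12.75, differed by 0.49.

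None of the 3 subunit genes of IDH3 passed the test. Idh3a encodes the catalytic alpha subunit, and Idh3b and Idh3g its beta and gamma partners. Idh3a read 11.50, 11.67 and 11.50 with Ad-GFP in lines 2, 7 and 8, and 10.74, 11.82 and 11.92 with Ad-Cre. The Ad-Cre array of line 2 was the lowest of the 6 and that of line 8 the highest. The line differences were -0.76, 0.16 and 0.42, with a mean of -0.06 ± 0.24 (SE; limma adjusted p = 0.931). Without line 2 the mean was 0.29 (limma adjusted p = 0.114).

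Idh3b read 12.70, 12.71 and 12.67 with Ad-GFP in lines 2, 7 and 8, and 12.52, 12.68 and 12.71 with Ad-Cre. Here too the Ad-Cre array of line 2 was the lowest, and the mean difference was -0.06 ± 0.07 (SE; limma adjusted p = 0.773). Idh3g read 13.21, 13.23 and 13.19 with Ad-GFP in the same order, and 13.27, 13.24 and 13.30 with Ad-Cre. Its levels did not overlap, but by a narrow margin, and the mean difference was 0.06 ± 0.06 (SE; limma adjusted p = 0.691) with a 95% interval from -0.08 to 0.20.

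D2hgdh, which clears D-2-hydroxyglutarate, had the largest lower reading of the 8 genes with Ad-Cre. It read 8.22, 8.22 and 8.12 with Ad-GFP in lines 2, 7 and 8, and 7.81, 7.38 and 7.79 with Ad-Cre. All Ad-Cre levels lay below all Ad-GFP levels, and line 7 had the largest difference (-0.41, -0.84 and -0.34). The mean was -0.53 ± 0.13 (SE, n = 3 lines; limma adjusted p = 0.236), or 1.44-fold lower, with a 95% interval from -0.87 to -0.19. Without line 2 it was -0.59 and did not pass. Of its 12 probe sets, 11 had a mean below 0 and 1 above, but the sizes varied. In a split made after the values were seen, 7 differed by -1.31 to -0.43 and 5 lay between -0.07 and 0.11, among them the brightest, the one above 0. Only 4 were lower in all 3 lines, and 3 had a mean signal below 6.59, the lower quartile of all probe sets on these arrays.

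Glud1, glutamate dehydrogenase, was the member with the lowest p. It read 13.19, 13.20 and 13.09 with Ad-GFP in lines 2, 7 and 8, and 12.90, 12.77 and 12.83 with Ad-Cre. The levels did not overlap, and the line differences, -0.29, -0.43 and -0.26, were close to one another. The mean was -0.33 ± 0.06 (SE, n = 3 lines; limma adjusted p = 0.166), or 1.26-fold lower, with a 95% interval from -0.49 to -0.16. Without line 2 it was -0.35 and passed (limma adjusted p = 0.0223). Over the 13 alternatives the limma adjusted p ranged from 0.0223 to 0.999. Only the exchange of the line 8 labels gave 0.999, and the next highest was 0.556, without line 7. All 16 probe sets had a mean below 0, and 15 were lower in all 3 lines. The 11 with a mean signal above 12 differed by -0.50 to -0.28, a split made after the values were seen. The 5 dimmer ones spread more widely, at -0.49, -0.74, -0.82, -0.10 and, for the dimmest, -1.004.

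Ogdh, the first subunit of the 2-oxoglutarate dehydrogenase complex, read 11.79, 11.83 and 11.81 with Ad-GFP in lines 2, 7 and 8, and 11.70, 12.03 and 11.93 with Ad-Cre. Line 2 was lower and lines 7 and 8 higher with Ad-Cre, so the levels overlap. The mean difference was 0.07 ± 0.09 (SE; limma adjusted p = 0.751), with a 95% interval from -0.15 to 0.30. Of its 25 probe sets 18 had a mean above 0 and 7 below.

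**Figure D2:**
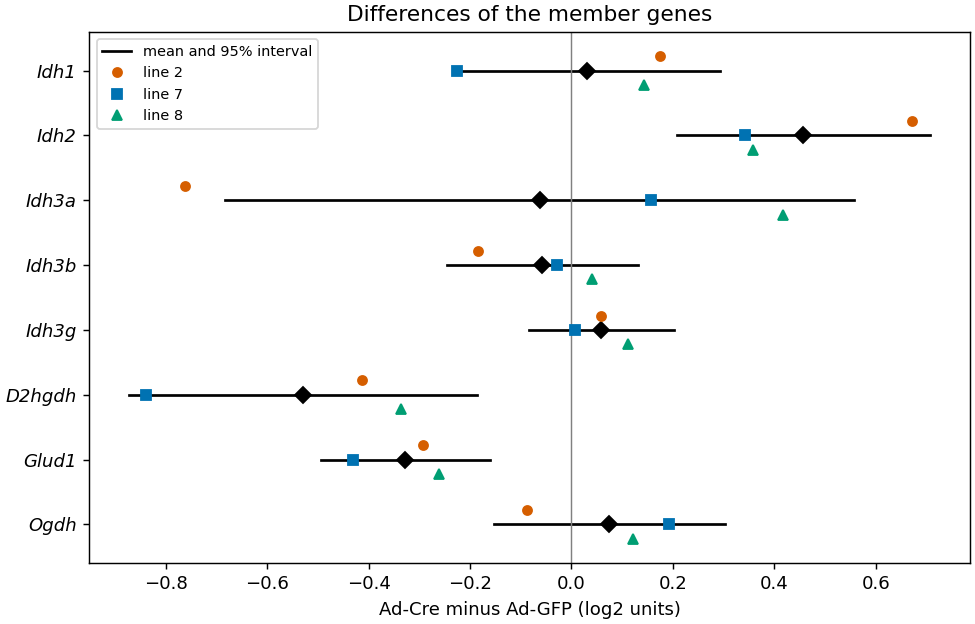
Ad-Cre minus Ad-GFP in log2 units (horizontal axis) for the 8 genes; diamonds and bars are the limma mean and 95% interval over 3 lines, coloured points the single lines. The intervals of Idh2, D2hgdh and Glud1 leave out 0, before adjustment over all genes, and Idh3a has the widest interval, from -0.68 to 0.56.

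Over all 117 probe sets of the 8 genes, none passed limma adjusted over all probe sets, and none of the 269751 did (0%). At an unadjusted p under 0.05, 11 were higher, all of Idh2 (5.26% of all probe sets), and 19 were lower, 14 of Glud1 and 5 of D2hgdh (5.47%). A direction shared by all 3 lines was seen for 45 of 117 (34% of all). Probe sets of one gene read the same transcript and are not replicates of a condition. A further test, limma's diffSplice, asked whether one probe set differed between viruses from the rest of its gene. None of the 117 passed, against 0.519% of all probe sets tested, and 8 had an unadjusted p under 0.05 (6.65% of all). The lowest adjusted p was 0.198, for the dimmest Glud1 probe set (mean signal 8.88). So no stretch of Idh1 or of another member passed as different from its own transcript.

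**Figure D3:**
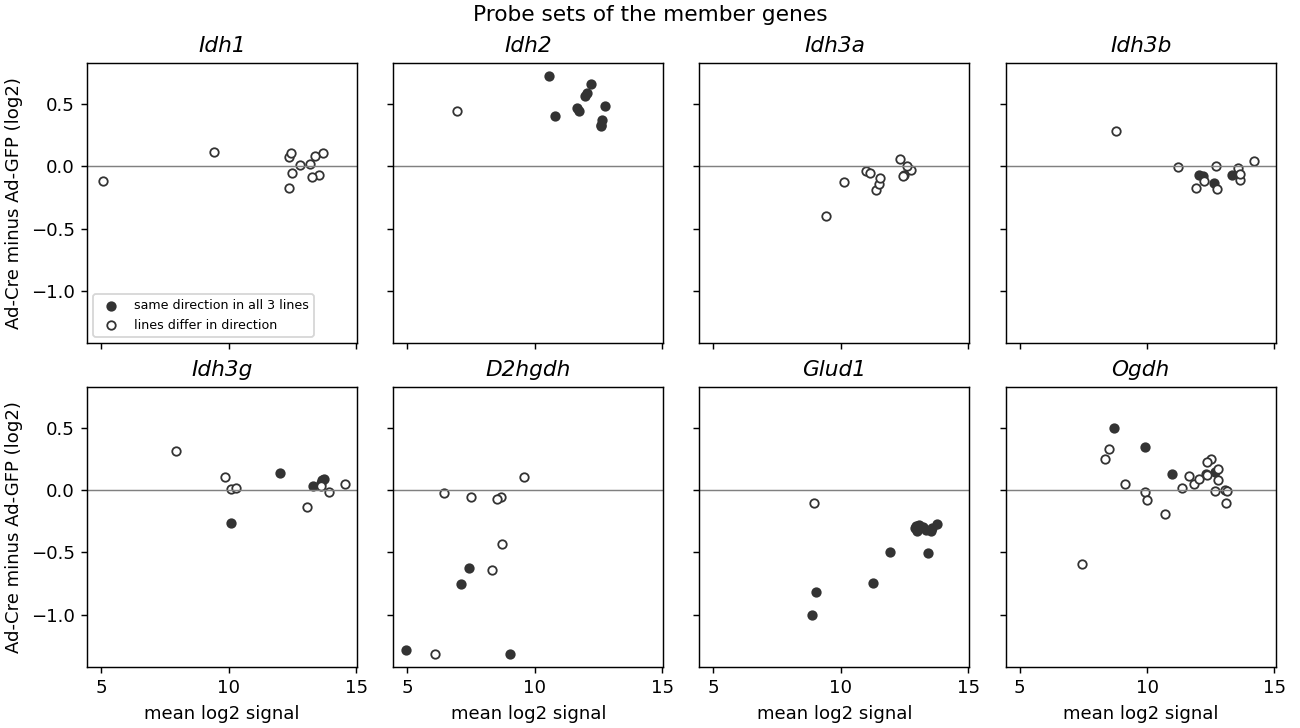
Each point is a probe set of a member gene, placed by its mean log2 signal over the 6 arrays (horizontal axis) and its Ad-Cre minus Ad-GFP difference in log2 units (vertical axis); filled points have the same direction in all 3 lines. Idh2 points all lie above 0 and Glud1 points all below, while D2hgdh points spread from -1.31 to 0.11.

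Differences between lines that both viruses share were tested by the moderated F test of the line terms in the same fit. It called 0 of the 8 genes, with a lowest adjusted p of 0.739, and 2 of all genes (0.00864%), so it says little about any single gene. At an unadjusted p under 0.05 it again marked 0 of the 8, where 4.92% of all genes were marked. Idh1 had the lowest p of the members, 0.0724. With Ad-GFP alone the SD over lines was at most 0.11 for each of the 8 genes, and with Ad-Cre it reached 0.66 for Idh3a.

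Genes whose pattern over the 6 arrays was most like that of Idh1 or Idh2 were sought among 9752 other genes with a mean signal above the median and at least 4 probe sets. Closest to Idh1 were Snap23, Zmym6 and Cux2, with Pearson r of 0.981, 0.980 and 0.979. Closest to Idh2 were Myh9 (0.999), Hdac4 (0.997) and Shfm1 (0.996). An r above 0.95 was reached by 12 genes for Idh1 and by 183 for Idh2, so the few named are the top of a long list for Idh2. With 6 arrays that share lines and virus, these values describe the arrays and have no test. Myh9 differed by 0.78 between viruses, while Snap23 differed by 0.0035.

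The surrounding pathway was read from 54 further genes in 6 lists, of which 49 were analysed here. None passed over all genes. At an unadjusted p under 0.05, 3 were higher (7.04% of all genes) and 5 lower (5.58%), and their median was -0.06, against 0.03 over all genes. In all 3 lines 7 were higher and 12 lower, where 38.3% of all genes had one direction in all lines. Without line 2, 6 of the 49 passed, where 5.23% of all genes did: Adhfe1, Dhtkd1, Abat and Gpt2 fell, and Mthfd2 and Got1 rose. With the line 8 labels exchanged, limma adjusted p of the pathway genes named by rule reached 0.999, which no other alternative gave.

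Among enzymes of 2-hydroxyglutarate, Adhfe1 had the largest difference of all 49. It encodes hydroxyacid-oxoacid transhydrogenase, which forms D-2-hydroxyglutarate from 2-oxoglutarate. Adhfe1 read 11.57, 11.35 and 11.04 with Ad-GFP in lines 2, 7 and 8, and 9.87, 10.16 and 10.46 with Ad-Cre. The levels did not overlap, and the line differences were unequal (-1.70, -1.19 and -0.58). Its mean was -1.15 ± 0.22 (SE; limma adjusted p = 0.161), and without line 2 it was -0.88 (limma adjusted p = 0.0176). Phgdh, of serine synthesis, which can also make 2-hydroxyglutarate, differed by -0.16 ± 0.10 (SE; limma adjusted p = 0.549).

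Of the 4 measured partners and relatives of Ogdh, 0 were higher (7.04% of all genes) and 1 lower (5.58%) at an unadjusted p under 0.05. The lower one was Dhtkd1, which serves the breakdown of lysine and tryptophan as a 2-oxoadipate dehydrogenase subunit. It differed by -0.74 ± 0.12 (SE; limma adjusted p = 0.120), in all 3 lines, and by -0.61 without line 2 (limma adjusted p = 0.0299), though its brightest probe set alone gave 0.21. With the line as a random block it also passed (limma adjusted p = 0.0342). Its mean log2 signal was low, at 7.32, and with dim probe sets left out it differed by -0.51 (limma adjusted p = 0.208). Ogdhl, an Ogdh relative, differed by 0.15 ± 0.10 (SE; limma adjusted p = 0.567). Dlst and Dld, which complete the complex with Ogdh, differed by 0.09 and -0.06.

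The list of glutamine, glutamate and aminotransferase genes held 12 measured genes. At an unadjusted p under 0.05, 0 were higher (7.04% of all genes) and 2 lower (5.58%). These were Abat, which breaks down GABA with 2-oxoglutarate as the amino acceptor, and Gpt2, the mitochondrial alanine aminotransferase. Abat differed by -0.43, -0.55 and -0.46 in lines 2, 7 and 8, a mean of -0.48 ± 0.08 (SE; limma adjusted p = 0.120). Gpt2 differed by -0.39, -0.54 and -0.26, a mean of -0.40 ± 0.08 (SE; limma adjusted p = 0.185), although its levels overlap, since line 8 read lower than the other lines with either virus. Got1, the cytosolic aspartate aminotransferase, was named after its values were seen: it differed by -1.14 in line 2 and by 0.49 and 0.56 in lines 7 and 8, and without line 2 it passed at 0.52 (limma adjusted p = 0.00598).

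The other enzymes of the citric acid cycle gave 0 genes of 13 at an unadjusted p under 0.05 in either direction. Of all genes, 12.6% reached it. In line 2, 12 of the 13 were lower with Ad-Cre, with a median of -0.27, against 6 in line 7 and 2 in line 8, with medians of 0.0041 and 0.07. Of all 23152 genes, 10352, 10305 and 11120 were lower in lines 2, 7 and 8, with medians of 0.03, 0.02 and 0.0080. The lowest p belonged to Suclg2, a succinyl-CoA ligase subunit, at -0.49 ± 0.20 (SE; limma adjusted p = 0.413), and Mdh1, cytosolic malate dehydrogenase, at -0.17 ± 0.13 (SE; limma adjusted p = 0.630). Without line 2 Suclg2 differed by -0.22 and Mdh1 by -0.0029. The line differences of Suclg2 were -1.02, -0.38 and -0.06. In line 2 Fh1, fumarate hydratase, read -1.04, a difference of the same direction as that of Idh3a there and also named after its values were seen. Beside these stand 5 markers of dividing cells, whose median differences were -2.55, -0.20 and -0.33 in lines 2, 7 and 8, and 7 astrocyte markers, with medians of 0.10, -0.38 and -0.56. Of these Gfap, an astrocyte filament, read 3.79 in line 2, while Aldh1l1 read -1.43 and Gja1 -0.47 there. Their part in the low line 2 readings of Idh3a and the cycle enzymes was not tested.

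Of the 8 mitochondrial carriers, 1 was higher (7.04% of all genes) and 1 lower (5.58%) at an unadjusted p under 0.05. Slc25a18, a glutamate carrier, differed by 0.18 ± 0.07 (SE; limma adjusted p = 0.388), and Slc25a13, the aspartate-glutamate carrier citrin, by -0.41 ± 0.13 (SE; limma adjusted p = 0.320), or by -0.26 without line 2. Slc25a11, which exchanges 2-oxoglutarate for malate, differed by 0.04. Of the 10 genes measured from the list named other NADPH producers, 2 were higher (7.04% of all genes) and 0 lower (5.58%) at that p. Both act in mitochondrial folate metabolism. The list name does not settle which cofactor each enzyme makes, and NADPH was not measured. Aldh1l2 differed by 0.94, 0.27 and 0.52 in lines 2, 7 and 8, a mean of 0.58 ± 0.15 (SE; limma adjusted p = 0.261). Mthfd2 differed by 0.02, 0.71 and 0.94, a mean of 0.56 ± 0.20 (SE; limma adjusted p = 0.367), and without line 2 by 0.83 (limma adjusted p = 0.00721).

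**Figure D4:**
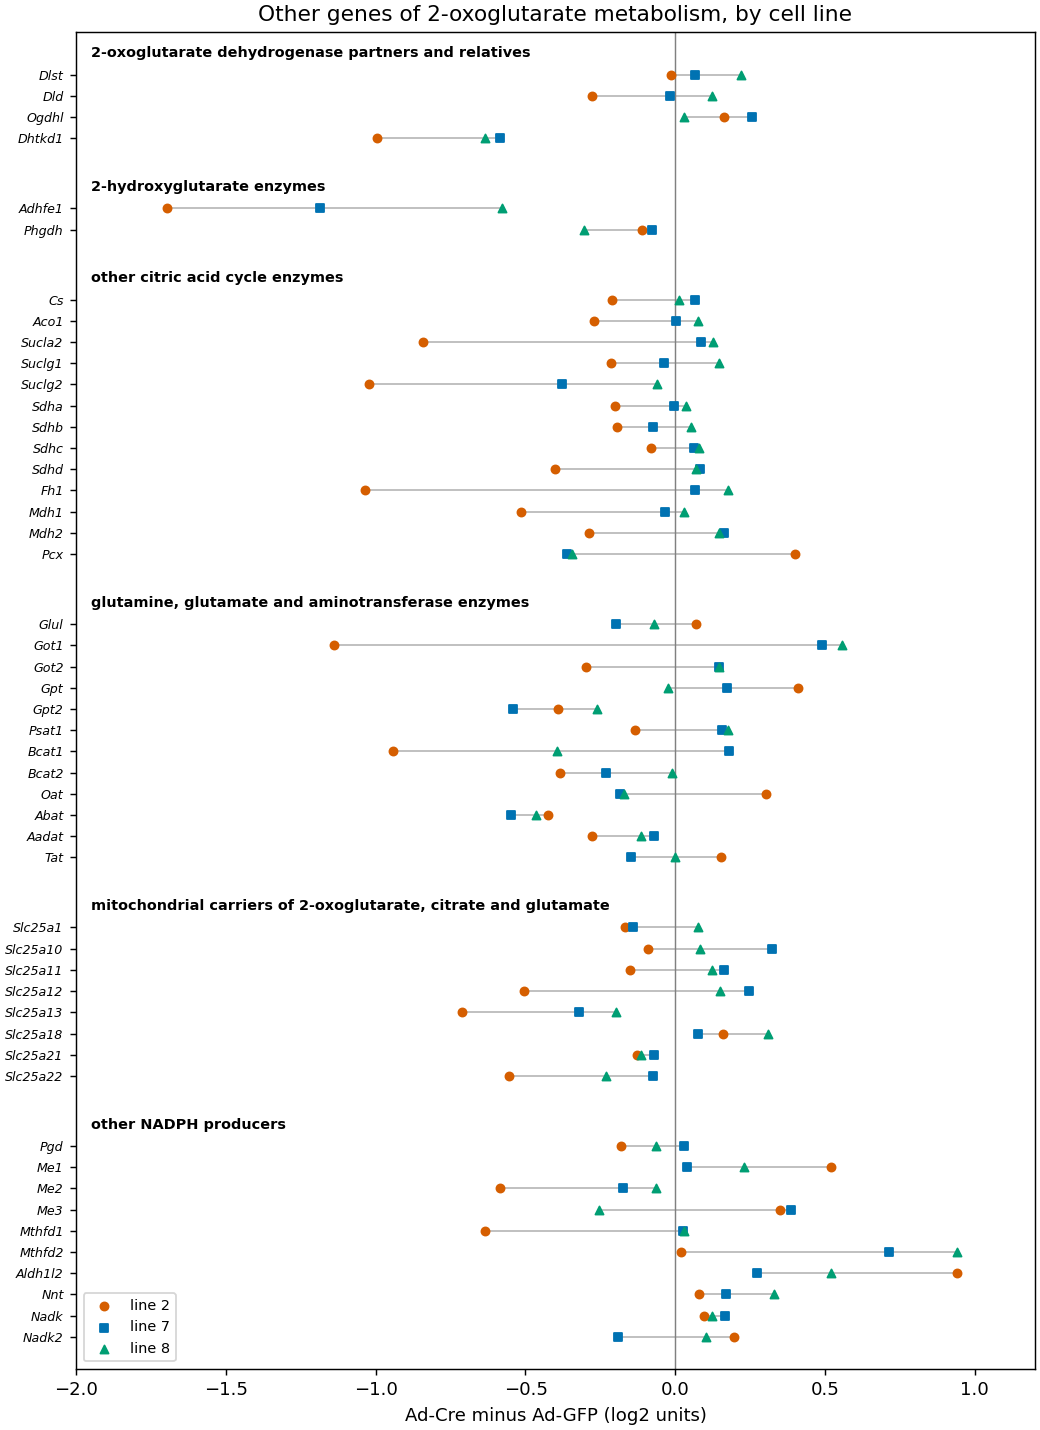
Ad-Cre minus Ad-GFP in log2 units (horizontal axis) of the 49 measured pathway genes, grouped by list; each coloured point is 1 cell line and grey bars span the 3 lines. Adhfe1 and Dhtkd1 lie lowest as a set of 3 points, and the line 2 points of most citric acid cycle enzymes lie left of those of lines 7 and 8, with Pcx as an exception.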

How the data were processed

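The authors deposited log2 signals of single probe sets; the submitters' processing notes name RMA and Affymetrix Expression Console, and the version, settings and build are unknown here. RMA makes the arrays' distributions alike, which would hide a shift of most genes. All 6 columns were used. GEO's platform annotation gave 1 symbol to 233753 probe sets, several to 5106 and none to 30892, and 0 probe sets with several symbols were used. The others were combined per gene by median polish (at most 20 iterations).

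The viruses were compared in limma 3.58.1 (R 4.3.3) with the cell line as a block, a variance trend, 2 residual degrees of freedom, two-sided tests and Benjamini-Hochberg adjustment at 0.05. The series design gave each line both viruses, which pairs arrays of one number. Deviations from the virus means correlated at 0.226, 0.163 and 0.333 for equal numbers and from -0.227 to 0.0029 for unequal ones. Deviations within a virus cancel out for every gene, so positive values for equal numbers tend to make those for unequal numbers negative. The contrast is therefore partly fixed by arithmetic and is no separate test of the pairing. The labels do not tie the lines to separate embryos. Each line gave 1 culture per virus, and the block takes out differences in level between lines. The only replicate spread behind the p-values is therefore how the Ad-Cre minus Ad-GFP difference varied among lines. The p-values do not rest on that spread alone. Each gene's variance was moderated towards a trend over all genes, so they also draw on the variance of other genes. The fits were tested on simulated data with effects larger than those of the members, equal noise for all genes and no array apart. That test therefore does not show how well differences of the members' size are found.

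Members, lists and tests were chosen with earlier results of these data known. Named were all members, the 2 genes of lowest p per pathway list, and 3 genes most like Idh1 and Idh2. Of 109 list genes, 102 matched, 2 through a synonym (Nadk2 and Map2). Alternatives covered the block, probe summary, normalization, dim values, trend, line 8 labels and single lines.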

Additional observations from a re-analysis of the deposited data

Results flagged for a closer look

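Members were examined for lines that went opposite ways, each by more than 0.148 log2 units, the median size of a line difference over all genes. Idh1 read 0.18 in line 2 and -0.22 in line 7. Idh3a read -0.76 in line 2, and 0.16 and 0.42 in lines 7 and 8. With 1 array per line and virus, the difference between lines was not tested.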

How the results depend on the processing

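Each of the 8 members was refitted under 13 alternatives, which gave 104 values: 92 kept the direction without passing, 2 kept it and passed, and 10 reversed. Idh2 (0.22 to 0.52) and Glud1 (-0.42 to -0.15) kept their direction in all 13, and each differed least with the line 8 labels exchanged. With the brightest probe set only, Idh3b read 0.045, D2hgdh 0.11, Ogdh -0.0047 and, of the pathway genes, Dhtkd1 0.21. With the line 8 labels exchanged, Idh1 read -0.064, Idh3g -0.015, Ogdh -0.0054, Phgdh 0.039, Slc25a18 -0.025 and Mthfd2 -0.069. Leaving out single lines gave Idh1 from -0.041 to 0.16, Idh2 from 0.35 to 0.52, Idh3a from -0.30 to 0.29, Idh3b from -0.11 to 0.0059, Idh3g from 0.033 to 0.085, D2hgdh from -0.63 to -0.37, Glud1 from -0.36 to -0.28 and Ogdh from 0.017 (without line 7) to 0.16 (without line 2). Members called numbered 0 to 2 and genes called 0 to 1211, the upper value without line 2 each time. The fit without line 2 had 1 residual degree of freedom, and its calls also draw on the variance of other genes. The count of genes was 82 with no replicate block, 241 with the line as a random block and 73 with the mean of probe sets, and members called stayed at 0 in these. Without the block 67 probe sets passed, and the pairing changed no member's call, while the pathway gene Dhtkd1 passed with the random block (adjusted p = 0.0342). Probe sets departing from their gene numbered 1202, and 226 with line 8 exchanged, where 1 was an Ogdh probe set, and 339 to 1136 with single lines left out. The cause of these changes was not tested. The 3 arrays per virus limit the precision.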
